A study of Mus musculus with 2 samples.

Results

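The genes described here act in homologous recombination, in the Fanconi pathway of crosslink repair and in the checkpoints that answer DNA damage. They are 31 genes taken by symbol, or its synonym, from a gene table of 43346 Ensembl genes, and all 31 were found. The cells were CH12.LX, an established line of mouse lymphoma B cells, labelled female and of strain B10.H-2aH-4bp/Wts, in which class switching of antibody genes is often studied. Its total RNA was sequenced in 2 libraries, replicates 1 and 2 of a single group for which the labels name no treatment, each with a biosample record of its own. No contrast between conditions exists, so levels are described and the only comparison is between the libraries. All values come from 1 cell line.

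Homologous recombination copies a broken DNA end from the sister chromatid during S and G2 phase. The broken end is first trimmed to single-stranded DNA by the MRE11, RAD50 and NBS1 complex with CtIP, and BRCA1, BARD1, PALB2 and BRCA2 then act in the search for the matching sequence. The Fanconi core complex attaches ubiquitin to FANCD2 and FANCI at DNA crosslinks, while the kinases ATM and ATR signal through CHK2 and CHK1. In switching B cells, breaks made in the antibody heavy chain locus are joined mostly by end joining, and ATM and the MRE11 complex sense them.

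Replicate 1 held 49278383 expected counts (estimated read counts, which need not be whole) and replicate 2 held 55950529. The 31 genes together held 59998 rounded counts in replicate 1 and 60768 in replicate 2, between 137 and 6627 per gene and library. All 8 B cell markers checked reached 1 TPM (a level scaled by transcript length and by the library total) in both libraries, summing to 1778 and 1680 TPM in replicates 1 and 2. Most of that sum was Ighm, at 1545 and 1452 TPM, and the lowest of the 8 was Pax5, at 6.09 and 6.99 TPM. Of 18 markers of T cells, myeloid and erythroid cells, stroma, endothelium, epithelium and liver, 2 reached 1 TPM in both libraries, Cd3d and Cd3g, and the 18 summed to 4.94 and 6.28 TPM, with Cd3e listed at 0 TPM.

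Upstream sequences are shown first, because several of these genes share short words there or share a start region with a neighbouring gene. They are RefSeq sequences of build GRCm38.p6, 5′ to 3′ on the strand of the gene, and each ends at or before the start site and stops where an annotated exon begins. Capitals mark the CCAAT box on either strand (the reverse complement reads ATTGG), an E2F word on either strand (TTTCCCGC, whose reverse complement reads GCGGGAAA), and a match to the NRF1 motif, GCGCAGGCGC in Atm. The first lies between the starts of Brca1 and Nbr1 (chr11:101551956-101552148, minus strand), the second between those of Chek2 and Hscb (chr5:110839778-110839978, plus strand) and the third between those of Rad54l and Pomgnt1 (chr4:116123691-116123839, minus strand). The others lie upstream of Brca2 (chr5:150522371-150522620, plus strand), Bard1 (chr1:71103147-71103222, minus strand), Brip1 (chr11:86201194-86201369, minus strand) and Atm (chr9:53536741-53536921, minus strand).
Brca1: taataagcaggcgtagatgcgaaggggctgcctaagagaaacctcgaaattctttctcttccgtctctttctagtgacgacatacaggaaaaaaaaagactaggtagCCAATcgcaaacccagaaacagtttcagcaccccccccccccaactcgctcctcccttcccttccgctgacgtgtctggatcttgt
Chek2: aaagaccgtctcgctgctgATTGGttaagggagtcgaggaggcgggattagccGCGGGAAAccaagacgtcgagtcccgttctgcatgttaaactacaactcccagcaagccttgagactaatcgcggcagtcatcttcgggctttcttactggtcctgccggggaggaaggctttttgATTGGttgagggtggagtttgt
Rad54l: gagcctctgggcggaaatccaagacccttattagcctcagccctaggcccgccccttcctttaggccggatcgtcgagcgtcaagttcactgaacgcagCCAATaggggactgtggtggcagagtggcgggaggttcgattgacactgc
Brca2: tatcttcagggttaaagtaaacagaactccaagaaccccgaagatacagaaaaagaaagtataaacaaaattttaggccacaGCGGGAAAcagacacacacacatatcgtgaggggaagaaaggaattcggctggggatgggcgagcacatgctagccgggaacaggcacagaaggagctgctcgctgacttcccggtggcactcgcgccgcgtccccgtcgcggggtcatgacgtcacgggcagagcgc
Bard1: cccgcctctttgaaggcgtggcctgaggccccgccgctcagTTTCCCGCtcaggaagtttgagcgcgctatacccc
Brip1: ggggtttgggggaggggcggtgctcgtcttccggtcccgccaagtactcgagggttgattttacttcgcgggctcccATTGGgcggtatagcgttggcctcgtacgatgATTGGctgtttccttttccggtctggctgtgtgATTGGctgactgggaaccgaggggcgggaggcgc
Atm: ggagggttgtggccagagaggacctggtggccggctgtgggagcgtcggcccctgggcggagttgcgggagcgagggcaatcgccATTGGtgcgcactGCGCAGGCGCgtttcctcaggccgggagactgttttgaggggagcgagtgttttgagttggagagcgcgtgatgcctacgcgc

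Nearly all of the genes were expressed, at moderate levels. In both libraries 30 of the 31 genes reached 1 TPM, and 1 gene, Rad50, reached 10 TPM. The median level was 4.54 TPM (replicate 1) and 3.87 TPM (replicate 2). By the mean of both libraries the median was 4.29 TPM, which lay inside the interquartile range of the 8895 protein-coding genes at 1 TPM or more, 3.11 to 15.5 TPM with a median of 6.67 TPM. Above that median were 8 of the 31 genes. Protein-coding genes hold a minor part of TPM in this total RNA, so these values read low: rescaled to the sum over protein-coding genes, the median of the 31 was 17.6.

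**Figure D1:**
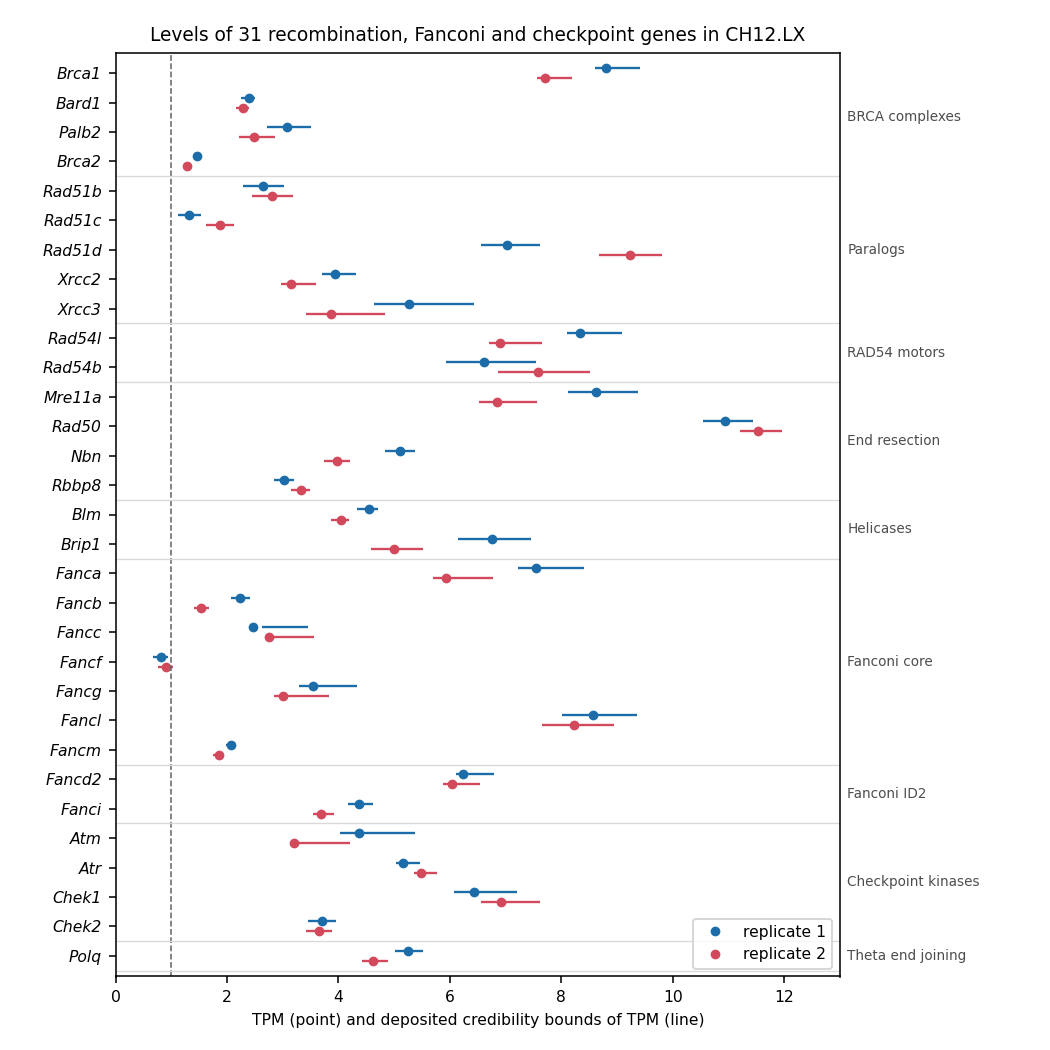
TPM of the 31 genes (horizontal axis) in replicate 1 (blue) and replicate 2 (red), grouped by role, with lines for the deposited credibility bounds and a dashed line at 1 TPM. Fancf is the only gene below the dashed line, and Rad50 is the highest at 10.9 and 11.5 TPM.

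The genes that trim DNA ends spanned from moderate to the highest level of the set. Rad50, the ATPase that tethers DNA ends, was at 10.93 TPM (replicate 1) and 11.52 TPM (replicate 2). Mre11a, the nuclease of the same complex, was at 8.62 and 6.85 TPM in that order, and Nbn, its NBS1 subunit, at 5.11 and 3.97 TPM. The subunits of this complex were therefore not at equal RNA levels in either library. Rbbp8, which encodes CtIP, the cofactor of the nuclease, was at 3.03 and 3.32 TPM.

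Brca1 stood above the other genes of the BRCA complexes in both libraries. Brca1, a ubiquitin ligase subunit that promotes resection and recruits PALB2, was at 8.81 TPM (replicate 1) and 7.71 TPM (replicate 2), with a mean of 8.26 ± 0.778 TPM (SD, n = 2). Bard1, its obligate partner, was at 2.39 and 2.28 TPM in that order, and Palb2, the bridge between BRCA1 and BRCA2, at 3.07 and 2.49 TPM. Brca2, the partner of PALB2 in strand exchange, was at 1.47 and 1.29 TPM (1.38 ± 0.127, SD, n = 2), and only Fancf had a lower mean. The deposited bounds of Brca1 and Bard1 did not overlap in either library, at 7.56 to 8.20 TPM and 2.16 to 2.39 TPM in replicate 2.

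Rad51b, Rad51c, Rad51d, Xrcc2 and Xrcc3 encode related proteins that work in complexes with each other during strand exchange, and their levels differed widely. Rad51d led them at 7.02 and 9.23 TPM in replicates 1 and 2, followed by Xrcc3 at 5.27 and 3.87 TPM and Xrcc2 at 3.94 and 3.15 TPM. Rad51b was at 2.65 and 2.81 TPM and Rad51c at 1.32 and 1.87 TPM. This order changed over protein-coding transcripts alone, described below. There Rad51d, at 3.39 TPM, was below Xrcc2, at 3.56 TPM, in replicate 1, and led at 4.45 TPM in replicate 2. Xrcc3, at 2.29 and 1.81 TPM, was then below Rad51b, at 2.64 and 2.81 TPM. Rad51d and Rad51c were higher in replicate 2, while Xrcc2 and Xrcc3 were higher in replicate 1. The genes of the DNA motor proteins of recombination were both above the median of the set. Rad54l was at 8.34 and 6.90 TPM, and its relative Rad54b at 6.61 and 7.58 TPM.

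Blm, the helicase that dissolves recombination intermediates, was at 4.54 TPM (replicate 1) and 4.04 TPM (replicate 2). Brip1, a helicase that binds BRCA1 and is also a Fanconi gene, was at 6.75 and 4.99 TPM. Polq, the polymerase of theta-mediated end joining, a backup route that uses short homologies, was at 5.24 and 4.62 TPM, so it was above Brca2 and Palb2 in both libraries.

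Genes of the Fanconi core complex ranged from the lowest of the set to one of the highest. Fancl, the ubiquitin ligase, was at 8.56 TPM (replicate 1) and 8.23 TPM (replicate 2), and Fanca at 7.55 and 5.93 TPM. Fancg was at 3.54 and 3.01 TPM, Fancc at 2.47 and 2.75 TPM, Fancm, the DNA translocase that anchors the complex, at 2.08 and 1.85 TPM, and X-linked Fancb at 2.24 and 1.54 TPM. Fancf, an adaptor encoded by a single exon, was the lowest of all 31 genes, at 0.81 and 0.90 TPM (0.855 ± 0.0636, SD, n = 2), and missed the 1 TPM threshold on 137 and 165 counts. The genes just above it were Brca2 and Rad51c. Fancd2 was at 6.24 and 6.04 TPM and Fanci at 4.37 and 3.69 TPM, with bounds that did not overlap in either library. The deposited TPM of Fancc lay outside its own bounds in both libraries, below 2.62 TPM in replicate 1 and below 2.76 TPM in replicate 2, and no other of the 31 genes did so.

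The checkpoint kinases all exceeded 3 TPM in both libraries. Chek1, the effector kinase of ATR, was at 6.43 TPM (replicate 1) and 6.91 TPM (replicate 2), and Atr at 5.16 and 5.49 TPM. Atm was at 4.37 and 3.20 TPM and Chek2, the effector kinase of ATM, at 3.71 and 3.66 TPM. The ATR and CHK1 pair was thus above the ATM and CHK2 pair by TPM in each library, and both of its genes were higher in replicate 2. In replicate 1, though, the deposited bounds of Atr, 5.03 to 5.45 TPM, overlapped those of Atm, 4.02 to 5.38 TPM. The difference of Chek1 between the libraries was not called in the count test below, and that of Atr depended on the scaling.

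Part of these gene levels came from transcripts that are not annotated as protein-coding. The annotation lists 168 transcripts for the 31 genes, and the transcript table gives each one's share of the TPM of its gene. Over the 30 genes at 1 TPM or more, protein-coding transcripts held a median of 88.8% of the TPM of the gene. In 16 of the 31 genes they held at least 90%, and in 4 genes, Rad51c, Rad51d, Rad54b and Xrcc3, they held under 50%. Among the 16 are Bard1, Blm, Brca2, Chek2, Fancb, Fancf, Fancm, Nbn, Rad51b and Rbbp8, for which only protein-coding transcripts are annotated. Their share of 100% was thus fixed by the annotation, and all of them but Fancf also enter the median. The shares of the other genes are estimates, since short reads divide the transcripts of a gene indirectly.

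**Figure D2:**
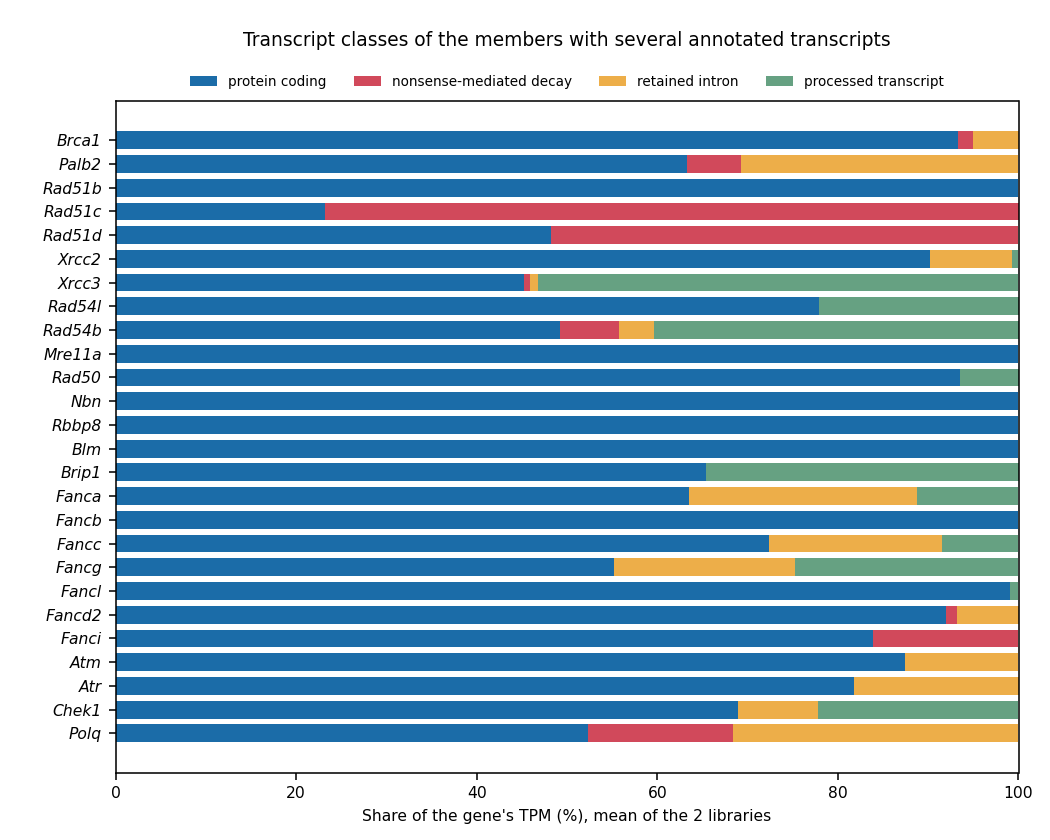
Share of the TPM of each gene (horizontal axis, percent, mean of both libraries) by annotated transcript class, for the 26 genes with more than 1 annotated transcript. Rad51c and Rad51d carry the broadest bars of transcripts annotated as targets of nonsense-mediated decay, at 76.8% and 51.8%.

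Rad51c and Rad51d differed from the other genes in the class of their transcripts. Transcripts annotated as targets of nonsense-mediated decay, the pathway that degrades RNAs with early stop codons, held 76.8% ± 3.02 of Rad51c (SD, n = 2) and 51.8% ± 0.0424 of Rad51d. In Rad51c, Rad51c-204 held 60.5% in replicate 1 and 52.9% in replicate 2, while the protein-coding Rad51c-201 held 19.2% and 20.3%. Summed over its protein-coding transcripts alone, Rad51c was at 0.28 TPM (replicate 1) and 0.47 TPM (replicate 2), below the 1 TPM threshold. For Rad51d the protein-coding transcripts summed to 3.39 and 4.45 TPM. By expected counts in place of TPM, transcripts of the decay class held 74.5% of Rad51c and 36.9% of Rad51d. Fanci and Polq were the other genes above 10% for this class, at 16.1% each.

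In Rad54b and Xrcc3 a short noncoding transcript held a large share of TPM but few of the counts. Xrcc3-204, of 369 bases, held 51.9% of the TPM of Xrcc3 in replicate 1 and 46.54% in replicate 2, and the protein-coding Xrcc3-201 held 43.5% and 46.87%, so Xrcc3-204 led in replicate 1 and Xrcc3-201, narrowly, in replicate 2. By expected counts, Xrcc3-204 held 8.86% and Xrcc3-201 held 88.7%. Rad54b-206, of 434 bases, held 40.4% ± 0.304 of TPM (SD, n = 2) and 8.86% of counts, and the protein-coding Rad54b-201 held 29.2% of TPM. Protein-coding transcripts alone summed to 2.29 TPM (replicate 1) and 1.81 TPM (replicate 2) for Xrcc3, and to 3.21 and 3.78 TPM for Rad54b. The places of both genes among the 31 therefore depend on which transcripts are summed.

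Retained-intron transcripts held at least 10% of TPM in 7 of the 31 genes. They were at 31.6% ± 1.87 in Polq, 30.7% ± 1.29 in Palb2 and 25.2% in Fanca (SD, n = 2). By expected counts they held less, at 10.2% of Polq, 13.8% of Palb2 and 5.62% of Fanca. In Polq, Polq-201 held 56.6% in replicate 1 and 48.0% in replicate 2, and Polq-205, with a retained intron, held 26.6% and 27.8%. The leading transcript of Palb2 was not the same in both libraries. Palb2-202 held 43.1% of Palb2 in replicate 1 and 20.7% in replicate 2, whereas Palb2-204 held 7.69% and 25.3% and Palb2-203 held 5.59% and 24.2%, a difference that was not tested. Palb2-208, with a retained intron, held 23.9% and 24.1%. Of the 26 genes with more than 1 transcript, 23 had the same leading transcript in both libraries. Chek1 was split among Chek1-201 at 34.1%, Chek1-205 at 30.3% and Chek1-207, not annotated as coding, at 19.9%. At the other end Brca1-201, of 23 exons, held 92.1% ± 2.15 of Brca1, Fancd2-201 held 91.0% of Fancd2 and Rad50-201 held 93.2% of Rad50.

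Other genes with 1 leading protein-coding transcript, by the mean share of both libraries, were Blm (Blm-201, 95.9%), Fancb (Fancb-203, 94.4%), Rad51b (Rad51b-202, 90.2%), Atr (Atr-201, 81.8%), Atm (Atm-201, 81.6%) and Xrcc2 (Xrcc2-201, 81.4%). Bard1, Brca2, Chek2, Fancm, Nbn and Rbbp8 had all of their TPM in 1 transcript, numbered 201 in each. Of these, Bard1, Brca2, Chek2 and Fancm have only 1 annotated transcript, so this was fixed by the annotation. Fancl and Mre11a were each divided among 3 protein-coding transcripts. Fancl-202 held 69.1%, Fancl-201 16.3% and Fancl-203 12.9%, while Mre11a-201 held 59.8%, Mre11a-204 23.2% and Mre11a-202 13.9%. By expected counts, Fancl-203 held 4.49% and Fancl-201 35.1%, and Mre11a-204 held 5.23% and Mre11a-202 27.4%.

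In several Fanconi and recombination genes, transcripts of other classes stood beside the main protein-coding one. Fanca-201 held 62.4% and the retained-intron Fanca-207 held 23.1%, and Fancc-214 held 56.2% beside the retained-intron Fancc-205 at 16.2%. Fancg-201 held 55.2% beside the noncoding Fancg-205 at 13.2%, and Brip1-202, also noncoding, held 16.3% of Brip1. By expected counts, Fanca-207 held 3.93%, Fancg-205 3.76% and Brip1-202 1.60%, while Fancc-205 held 15.6%. Fanci-201 held 76.7%, and the decay-class Fanci-204 held 11.2% in replicate 1 and 21.0% in replicate 2, a difference that was not tested. Rad54l was divided among the protein-coding Rad54l-202 at 57.2% and Rad54l-201 at 20.7% and the noncoding Rad54l-204 at 21.5%. By expected counts, Rad54l-204 held more, at 31.1%. The decay-class Rad51c-203 held 20.1% of Rad51c. In Rad51d the decay-class Rad51d-204 and Rad51d-205 held 25.6% and 23.3%, and the protein-coding Rad51d-201 and Rad51d-203 held 29.2% and 14.98%. Rad51d-201 led in replicate 1, at 32.84%, and Rad51d-204 in replicate 2, at 27.16% beside 25.55% for Rad51d-201. By expected counts, Rad51d-201 held 51.9% and Rad51d-204 held 17.2%.

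The libraries differed by small amounts in most of these genes. Counts were compared with a two-sided exact binomial test (Benjamini-Hochberg adjustment over 15438 genes), whose error is that of counting alone and which sets 1 library against the other, not 1 condition. It called 22 of the 31 genes at an adjusted p under 0.05, or 71.0%, beside 50.4% of all genes tested and 65.7% of the 9835 tested genes whose mean was at least 1 TPM. The share among the 31 genes is thus near that of genes expressed at such levels. Of the 22, 16 were lower in replicate 2 and 6 higher, beside 25.1% lower and 25.2% higher among all genes tested, and 36.3% lower and 29.4% higher among the 9835. Scaled by total counts in place of TMM factors, the split was 19 lower and 3 higher. Under that scaling 51.9% of all genes tested were called, and their split by direction was not worked out. None of the 31 had a ratio of at least 2, which 4.77% of all genes tested and 1.45% of the 9835 had together with an adjusted p under 0.05. Before adjustment, 23 of the 31 had a p under 0.05 in the exact binomial test.

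**Figure D3:**
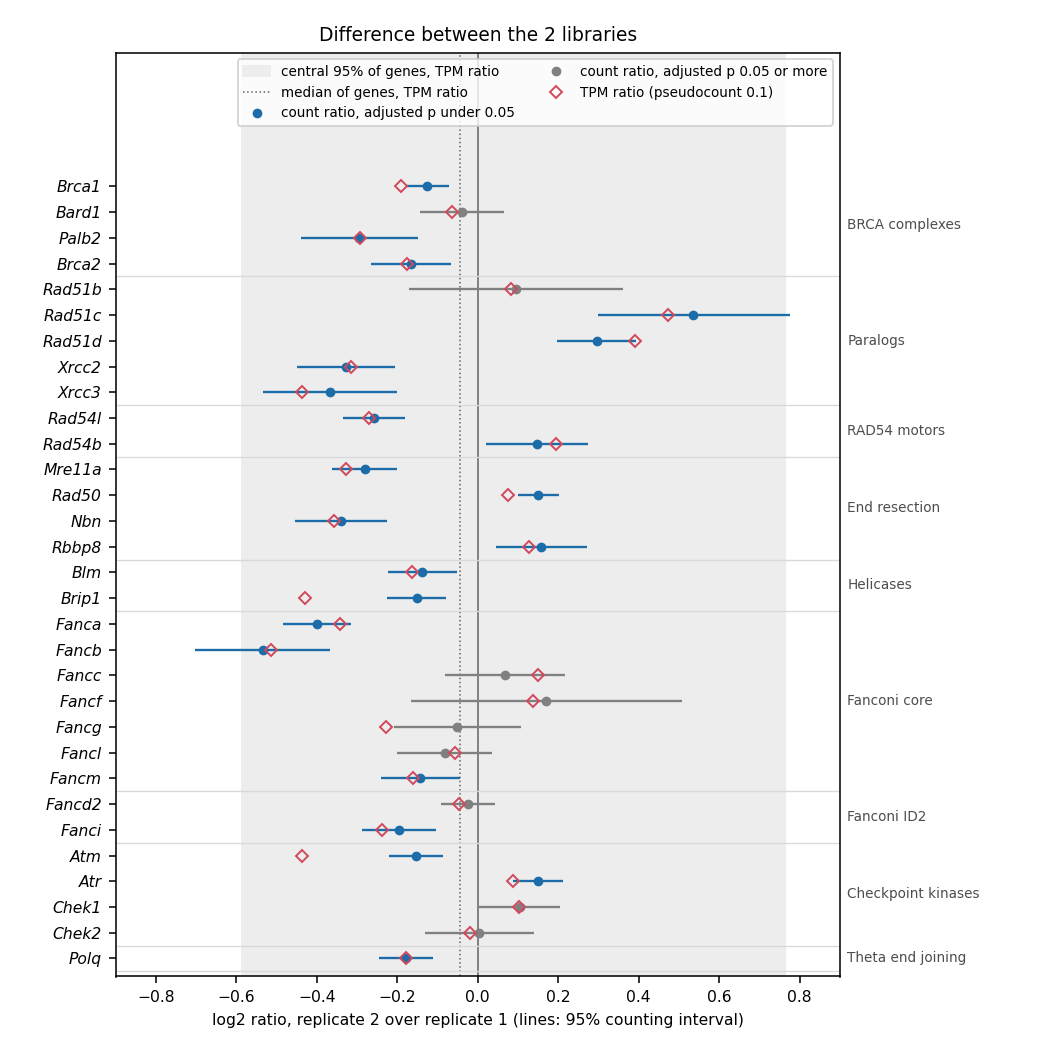
Log2 ratio of replicate 2 over replicate 1 (horizontal axis) for each gene, by TMM-scaled counts (circles, with 95% counting intervals, blue where the adjusted p is under 0.05) and by TPM (open diamonds). The grey band holds the central 95% of genes whose mean was at least 1 TPM, -0.59 to 0.76, and all 31 TPM ratios lie inside it.

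By TPM, 21 of the 31 genes were lower in replicate 2, or 67.7%, beside 56.1% of the 9851 genes whose mean was at least 1 TPM. On the log2(TPM + 0.1) scale the median difference, replicate 2 minus replicate 1, was -0.16 over the 31 genes and -0.04 over the 9851 genes. All 31 ratios lay inside the central 95% of single genes, -0.59 to 0.76. The 6 Mcm2 to Mcm7 genes of the replicative helicase, chosen after the values were seen, were all lower in replicate 2, with ratios from -0.37 to -0.15, and their part in the result was not tested. Summed over protein-coding transcripts alone, a step also added after the values were seen, the median of the 31 genes was -0.07, with 21 again lower in replicate 2. The median over all genes was not worked out for that sum.

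Fancb and Fanca lay at the low end of the ratios, with Mre11a and Nbn also among the genes lower in replicate 2. Fancb had 688 counts in replicate 1 and 509 in replicate 2, a log2 count ratio of -0.53 (95% counting interval -0.70 to -0.37, adjusted p = 1.27e-09, exact binomial test). Fanca had 2549 and 2070 counts, a ratio of -0.40 (-0.48 to -0.31). Xrcc3 followed at -0.37, Nbn at -0.34, Xrcc2 at -0.33, Palb2 at -0.29 and Mre11a at -0.28. At the high end Rad51c had 241 and 374 counts, a ratio of 0.54 (0.30 to 0.77, adjusted p = 2.45e-05, exact binomial test), and Rad51d had 1481 and 1947 counts, a ratio of 0.30 (0.20 to 0.39). Rad50 and Atr were also higher in replicate 2, both at 0.15, with Rbbp8 at 0.16 and Rad54b at 0.15. Scaled by total counts in place of TMM factors, Rbbp8, Atr and Rad54b were not called. By counts, Rad50 was thus higher in replicate 2 and Mre11a and Nbn, the other subunits of its complex, were lower. The TPM bounds of Rad50 overlapped, though, at 10.54 to 11.43 TPM (replicate 1) and 11.20 to 11.97 TPM (replicate 2). Under total-count scaling the count ratio of Rad50 was smaller, at 0.07, but it was still called.

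The deposited credibility bounds of TPM, which also cover the assignment of shared reads, gave a narrower picture. They did not overlap between the libraries for 15 of the 31 genes, among them Brca1, Brca2, Fanca, Fancb, Rad51c, Rad51d, Mre11a and Nbn, and they overlapped for the other 16. The share of all genes with bounds apart was not worked out, so whether 15 of 31 is usual is not known. All 15 were also called by the count test, in the same direction. Both measures come from the same reads, so the overlap of the calls is not separate support. For Atm and Brip1 the measures differed in size. Atm had a log2 ratio of -0.44 by TPM but -0.15 by counts, and Brip1 -0.43 and -0.15. In both genes a short transcript took more of the TPM in replicate 1: Atm-204 held 14.8% there and 10.3% in replicate 2, and Brip1-203 held 21.86% and 14.75%. Atm-203, a short protein-coding transcript, held 8.37% in replicate 1 and 0% in replicate 2. The full-length Brip1-201 was at 3.99 and 3.58 TPM in replicates 1 and 2.

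No difference was called for 9 of the 31 genes. Fancl, Fancg, Fancf and Fancc of the core complex were not called, nor were Fancd2, Bard1, Rad51b, Chek1 and Chek2. Scaled by total counts in place of TMM factors, Bard1, Fancl and Fancd2 were called lower in replicate 2, Fancd2 at a log2 count ratio of -0.11, below its interval of -0.09 to 0.04 under TMM scaling. The interval of Fancf was -0.17 to 0.51 on 137 and 165 counts. A p above the threshold does not show that these genes were equal.

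A list of 57 partners of the pathway was measured beside the 31 genes, and 55 reached 1 TPM in both libraries, with a median of 7.44 TPM over all 57. At the top, with values in replicates 1 and 2, were H2afx, the histone variant phosphorylated at breaks, at 141.9 and 116.6 TPM, Rpa1, the large subunit of the single-strand binding protein, at 86.8 and 70.1 TPM, Swi5, a subunit of the SWI5 and SFR1 complex, at 78.7 and 70.4 TPM, and Uimc1, which brings the BRCA1-A complex to ubiquitin, at 37.0 and 42.3 TPM. At the low end Fan1 was at 1.27 and 1.14 TPM, Rmi1 at 1.27 and 1.11 TPM and Swsap1 at 1.07 and 0.95 TPM. Dmc1, the meiotic recombinase, had 0 counts in both libraries, where 3 counts would give 0.0134 and 0.0123 TPM. Of the 56 partners with enough counts to test, all but Dmc1, 31 were called between the libraries, 26 lower and 5 higher in replicate 2, and 0 had a ratio of at least 2. The 31 called are 54.4% of all 57 partners. Among all genes tested 50.4% were called, 25.1% lower and 25.2% higher, and 4.77% were called with a ratio of at least 2. For tested genes whose mean was at least 1 TPM these shares were 65.7%, 36.3%, 29.4% and 1.45%. Scaled by total counts, 36 partners were called lower and 2 higher, beside 51.9% of all genes tested called in either direction. The split of those genes by direction was not worked out.

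Many of the 31 genes begin next to another gene. In the GENCODE M21 annotation, 12 of them, or 38.7%, had a protein-coding gene on the opposite strand whose start lay within 1000 bases of their own, beside 19.7% of the 8895 protein-coding genes at 1 TPM or more and 10.9% of all 21951 protein-coding genes. The starts of Fancd2 and Emc3 were 30 bases apart, those of Palb2 and Dctn5 56, Rad51c and Tex14 111, Rad54l and Pomgnt1 150, Brca1 and Nbr1 194, Chek2 and Hscb 202, and Atm and Npat 307. Of the 12 neighbours, 10 reached 1 TPM in both libraries. The exceptions were Tex14, at 0.36 TPM (replicate 1) and 0.34 TPM (replicate 2) beside Rad51c at 1.32 and 1.87 TPM, and Gas2, at 0.39 and 0.80 TPM beside Fancf.

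**Figure D4:**
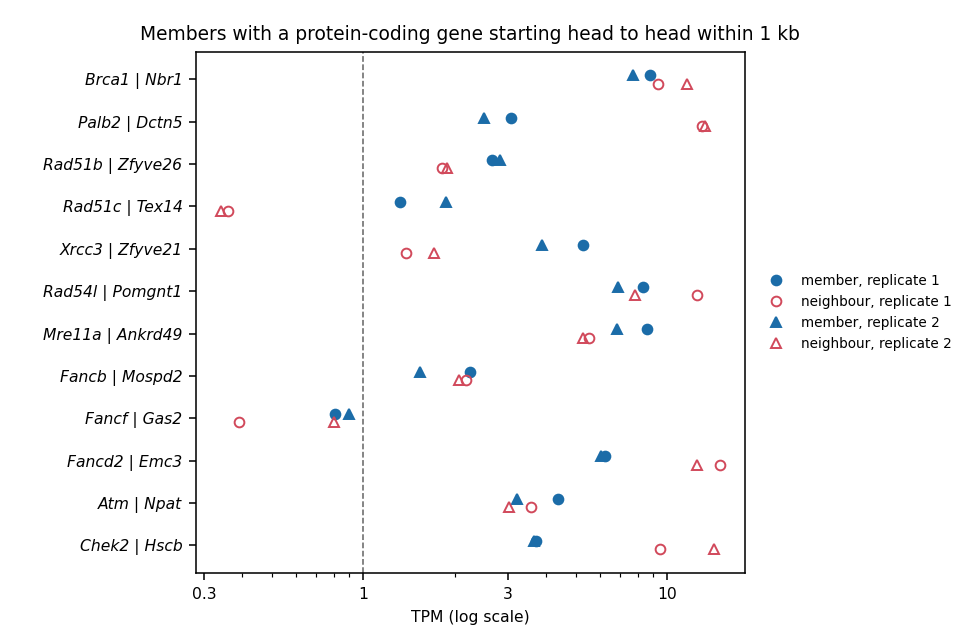
TPM on a log scale (horizontal axis) for the 12 genes with a protein-coding gene starting head to head within 1000 bases (filled blue) and for that neighbour (open red), in replicate 1 (circles) and replicate 2 (triangles). Dctn5, Emc3, Hscb, Nbr1 and Pomgnt1 lie above their partners in both libraries, and Tex14 is among the neighbours that lie below theirs.

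Levels within a pair were often unequal and did not always move together between the libraries. Dctn5 was at 13.02 and 13.37 TPM in replicates 1 and 2 beside Palb2 at 3.07 and 2.49 TPM. Hscb was at 9.48 and 14.2 TPM beside Chek2 at 3.71 and 3.66 TPM. Nbr1 was at 9.33 and 11.7 TPM, higher in replicate 2, while Brca1 was higher in replicate 1. Npat, a regulator of histone transcription, was at 3.56 and 3.01 TPM, close to Atm at 4.37 and 3.20 TPM. A protein-coding gene overlaps the span of 10 of the 31 genes, and whether the counting used strand is not given in the sources used here, so the values of such genes are less certain. They are Xrcc3, Rad54l, Mre11a, Fanca, Fancc, Fancf, Fancl, Fancd2 and Fanci, each with a gene on the opposite strand, and Rad54b, which overlaps Fsbp on the same strand.

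Short promoter words were counted in the 250 bases upstream of RefSeq start sites on both strands, for 27 start sites of 24 of the genes and for all 32851 start sites in the table. The CCAAT box was found at 59.3% of the 27 start sites and at 33.8% of all. The GC box (GGGCGG) was likewise found at 59.3% of the 27 and at 32.7% of all. An E2F word (any of TTTGGCGC, or TTTCCCGC, or TTTCGCGC, or TTTGCCGC) occurred at 14.8% of the 27, in Bard1, Brca2, Chek2 and Fancg, and at 1.86% of all. The cell cycle element CHR (spelled TTTGAA, with TTCGAA also accepted) occurred at 11.1% and 17.1%, and the NRF1 motif at 7.41%, in Atm and Palb2, and 3.74%. Median GC content upstream was 56.4% for the 27 and 52.4% for all, and its part in these shares was not tested. A match describes letters and not binding. The only overlaps among the matches were of a CCAAT box with a GC box in Brip1 and of a pair of GC boxes in Mre11a. Brip1 had 3 CCAAT boxes, as its sequence above shows, and Brca1 had 1, while Xrcc3, whose sequence is not shown, had 6.

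**Figure D5:**
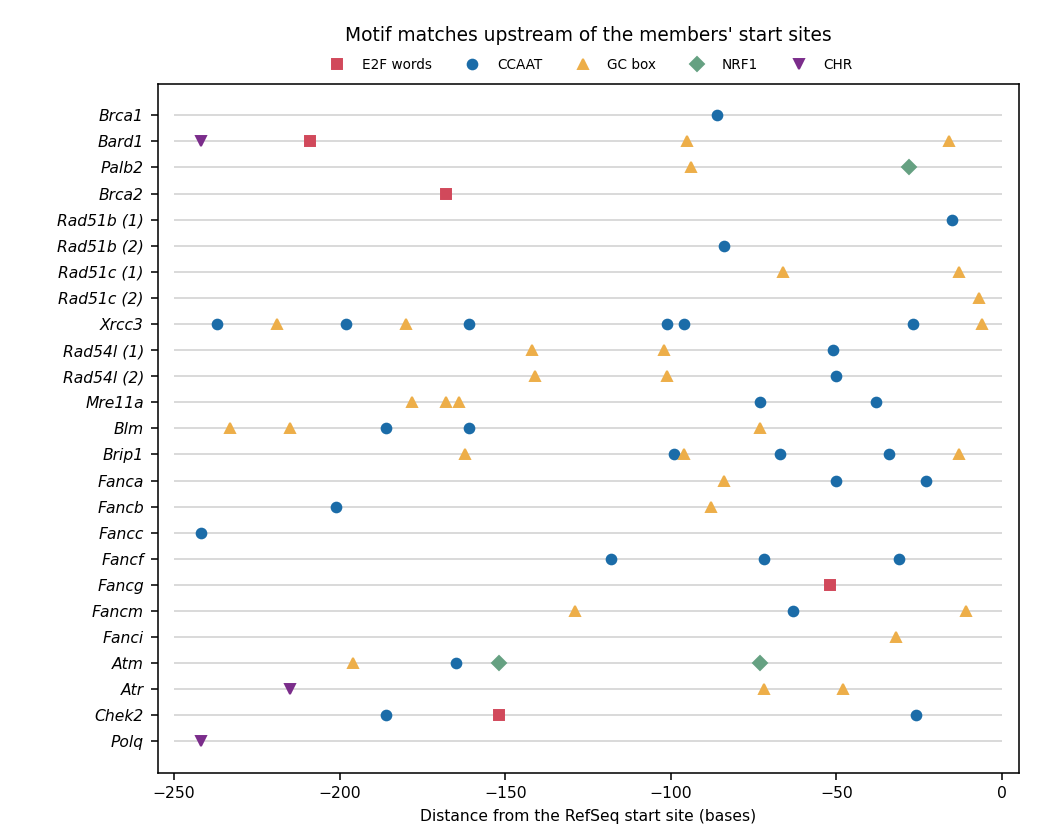
Position of each motif match (horizontal axis, bases upstream of the RefSeq start site) for the start sites with at least 1 match, 1 line per start site, where (1) and (2) are alternative start sites of a gene. CCAAT boxes (blue) are found in 14 of the 24 genes, and E2F words (red) in 4.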

How the data were processed

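Members and lists were chosen with earlier results of these data known. For both libraries there are gene tables by release (M2, M3, M4) and a transcript table for M4, on mm10. No source used here names the aligner or quantifier. Per the file headers, the authors gave expected counts, which are estimated read numbers, beside TPM, FPKM and posterior mean TPM. Percent columns in the deposited transcript tables say how much of its gene each transcript makes up. Credibility bounds of TPM, of unit other, were deposited too.

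The M4 table was used. Its 26248 rows with numeric identifiers and 97 spike-in rows were left out (5.68e-05% and 5.36e-05% of counts in replicates 1 and 2). GENCODE M21, also on mm10, gave symbols, transcript classes and positions. Identifiers without version matched for 42462 of 43346 genes, and for all but 2 of the 168 transcripts. Levels are mean ± SD over 2 libraries. Detection is 1 TPM or more in each library.

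For the library comparison, expected counts were rounded and scaled with TMM factors (edgeR 4.0.16, R 4.3.3) over genes with at least 10 counts summed. The exact binomial test doubled the smaller tail. It was tested on simulated data. edgeR's quasi-likelihood test needs replicates on each side and was not run. How the cultures were grown is not in the labels, so the spread may be technical, and the library comparison has no replicate check. Intervals cover counting error only. The text names all 31 genes, the 4 highest and 4 lowest partners, and, for genes at 1 TPM or more, transcripts with at least 10% of a gene in both libraries. Others were chosen after their values were seen. Alternatives were the annotation release, the measure and scale of level, normalization (DESeq2 1.42.0 size factors or total counts), the count filter, the pseudocount and each library left out. Other steps used Python 3.11.15, numpy 2.4.6, pandas 2.3.3, scipy 1.17.1 and matplotlib 3.10.9.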

Additional observations from a re-analysis of the deposited data

How the results depend on the processing

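The median level of the 31 genes was 4.42 TPM with M2 or M3 in place of 4.29 TPM, and 3.87 to 4.54 TPM with either library left out. It moved to 9.46 as FPKM, to 17.6 with TPM rescaled to protein-coding genes and to 3.40 TPM over protein-coding transcripts alone, an alternative chosen after seeing the data. The number at 1 TPM or more was 29 or 30 across releases, posterior mean TPM, protein-coding transcripts and left-out libraries. It was 31 at 0.5 TPM and 26 at 2 TPM. A cutoff of 1 also gave 31 as FPKM and as rescaled TPM, but levels run higher on both scales, so the cutoff is looser there. The number of partners at 1 TPM or more was 55 or 56. The median log2 ratio kept its sign under every alternative run, from -0.22 (FPKM) to -0.07 (protein-coding transcripts). The median over all genes whose mean was at least 1 was negative too, from -0.09 (FPKM) to -0.02 (rescaled TPM). A kept sign is therefore not particular to the 31 genes. For protein-coding transcripts the median over all genes was not worked out. The count test called 21 or 22 of the 31 genes and 28 to 38 partners. The share called of all genes tested ran from 36.0% (a filter at 1 count) to 51.9% (total counts). With total counts, 19 of the 31 were called lower and 3 higher in replicate 2. The split by direction over all genes tested was not worked out for that scaling, so whether this split is usual is not known. In single genes, Rad54b lost its call with DESeq2 size factors, total counts, a filter at 1 count and M2, Atr and Rbbp8 lost theirs with total counts, and Bard1, Fancl and Fancd2 gained one with total counts. The median share of protein-coding transcripts moved from 88.8% to 97.6% by expected counts and to 85.3% by posterior mean. The cause was not tested, apart from the change of scale itself. No paired analysis was possible because there is a single group. Depth limits Fancf most, with 137 and 165 counts.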
